A study of Mus musculus with 4 samples.

Results

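The genes of the mitochondrial ribosomal proteins were compared between lenses of Celf1 conditional knockout (cKO) mice and Control lenses at postnatal day 6. Members were all probes whose symbol in the deposited normalized table began with Mrpl (large subunit) or Mrps (small subunit) followed by a number. By symbol these were 125 probes of 73 genes, of which 99 probes of 68 genes had a detection p-value under 0.05 on at least 2 of the 4 arrays. These 68 genes, 41 Mrpl and 27 Mrps, stand among 11516 genes tested on the array. The cKO lenses (n = 2, A and B) carried a Celf1 lacZKI germline knockout allele and a Celf1 flox allele (exon between loxP sites) deleted by Pax6GFPCre, a transgene active in the lens from the lens placode on and also in the pancreatic lineage. The Control lenses (n = 2, A and B) were Celf1 lacZKI/+, so both groups carried the lacZ knock-in allele, and the Cre transgene is named for the cKO mice. The strain background was a mix of C57BL/6 and FVB. RNA of 1 lens was hybridized to each array, an Illumina MouseWG-6 v2.0 BeadChip, on which beads carrying a DNA probe report a fluorescence intensity. With 2 arrays in a group, p-values and standard errors (SE) rest on the spread between single lenses, shrunk toward a variance pooled over all genes. An SE is therefore not the spread of that gene's own lenses. The paper counts 1 lens as a biological replicate. Nothing in the sources says whether lenses A and B of a group came from different mice or litters.

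Mitochondria translate the few proteins encoded by mitochondrial DNA, all of them parts of the respiratory chain and ATP synthase, on their own ribosomes. The protein part of these ribosomes is encoded in the nucleus, made in the cytosol and imported, and assembles on ribosomal RNAs transcribed from mitochondrial DNA. The small subunit binds the mRNA, and the large subunit forms peptide bonds and releases the chain through an exit tunnel toward the inner membrane. Some of the proteins descend from bacterial ribosomal proteins and others are specific to mitochondria. In the lens, the epithelium and young fiber cells hold mitochondria, while maturing fiber cells degrade their organelles. CELF1 is an RNA-binding protein that acts on the splicing, stability and translation of mRNAs.

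The cKO arrays were brighter than the Control arrays, with 16261 and 16925 probes detected on the cKO arrays against 14542 and 14180 on the Control arrays. Genotype and array brightness varied together and cannot be told apart. Signal is therefore given after quantile normalization, on the log2 scale. Celf1, the targeted gene, had a log2 signal of 7.45 and 6.95 in cKO lenses and 8.71 and 8.55 in Control lenses (log2 fold change -1.43 ± 0.19 SE, limma adjusted p = 0.00990). Without normalization between arrays its log2 fold change was -0.60, or -1.17 relative to the median of all genes. Xist, expressed from the inactive X chromosome, was at 7.42 and 7.27 in cKO and 4.26 and 4.39 in Control lenses, and the Y-linked Ddx3y at 6.81 and 4.83 against 8.99 and 8.82. The cKO lenses were unlike each other in Ddx3y, and cKO A held clear signal of both Xist and Ddx3y, the reason for which was not tested. The sex of the mice is not given in the labels, and genotype and sex cannot be told apart. Of 17 lens fiber markers 15 passed the detection filter (Bfsp1 and Gja3 did not), with a summed linear signal of 332886.8 to 340393.2 in cKO and 362276.7 to 362751.4 in Control lenses. Of 8 lens epithelium markers 7 passed (Pax6 did not), with sums of 11735.6 and 12605.3 against 13738.6 and 15734.3. Both sums are carried by bright crystallin probes. Quantile normalization gives every array the same set of values, so a sum over the brightest probes is largely fixed and cannot report fiber content. Among the single markers of the fiber list Dnase2b (log2 fold change -1.60), Bfsp2 (-0.76) and Crygb (-0.60) were called reduced. Of the epithelium list Foxe3 (-0.80) and Pdpn (-0.72) were called reduced. Among markers of other cell types, 4 of 10 for macrophages summed to 121.2 and 132.4 in cKO and 95.1 and 95.5 in Control lenses, with Adgre1, Ptprc and Lyz2 not passing. Of these 4, Cd68, C1qb and C1qc were detected in the cKO lenses alone, so that the filter itself favoured a higher cKO sum. Of 10 retina markers 1 passed (20.6 to 29.8), of 7 pigment cell markers 2 (46.6 to 70.3) and of 8 muscle markers 3 (88.8 to 95.2). Of 7 blood markers 3 passed (350.4 and 754.7 in cKO, 522.9 and 630.4 in Control lenses), with Slc4a1 called reduced at -1.03. Of 10 vessel markers 8 passed (771.4 and 1073.3 in cKO, 751.9 and 839.0 in Control lenses), 4 higher and 4 lower in cKO lenses. Emcn was called elevated at 1.12, and Kdr was at -0.59 and not called. Acta2, in the same sum, was at 7.36 in cKO A and 8.88 in cKO B. The part of cell makeup in the results below was not tested, and fewer cells of a type cannot be told apart from less RNA per cell.

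After quantile normalization most mitochondrial ribosomal protein genes differed little between cKO and Control lenses, and those that differed did so in both directions. A gene was called when its adjusted p was below 0.05, its log2 fold change was beyond 0.58 in either direction, a 1.5-fold change, and its mean log2 signal exceeded 4.6. Of the 68 members 3 were called (4.41%), against 11.7% of all genes tested. Mrps17 was elevated, where 6.02% of all genes were called elevated, and Mrpl3 and Mrpl52 were reduced, where 5.64% of all genes were. The median log2 fold change of the members was -0.004, with 34 genes above 0 and 34 below, and 0.01 over all genes. The middle range of the members, from the lower to the upper quartile, ran from -0.19 to 0.18. The absolute log2 fold change had a median of 0.18 in the members and 0.25 over all genes, and it was under 0.2 in 37 members. It passed 0.58 in 5 of 68 members, or 7.4%, against 15.7% of all genes. The groups did not overlap in 43 of the 68 members (63.2%), 22 higher and 21 lower in cKO lenses, beside 62.3% of all genes. An unadjusted p under 0.05 was found for 14 members (20.6%), against 31.9% of all genes. Both of these counts include Mrpl39, which passed the detection filter through the cKO lenses alone, and were 42 and 13 of 67 without it. Mrpl39 is also among the 34 genes above 0. These shares describe the members and were not tested as a set. They depend on the scaling. With no normalization between arrays, 50 of the 68 members (73.5%) were called, all elevated. Of all genes 50.3% were then called, 97.7% of them elevated. With arrays scaled to a common median 7 members (10.3%) were called, with 3 of 5 Mrpl and 2 of 2 Mrps calls elevated. Of all genes 23.4% were then called, 24.9% of them elevated. These scalings differ by 1 constant per array, and under both the member medians lay 0.21 above that of all genes. The SE of a member's log2 fold change had a median of 0.146.

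**Figure D1:**
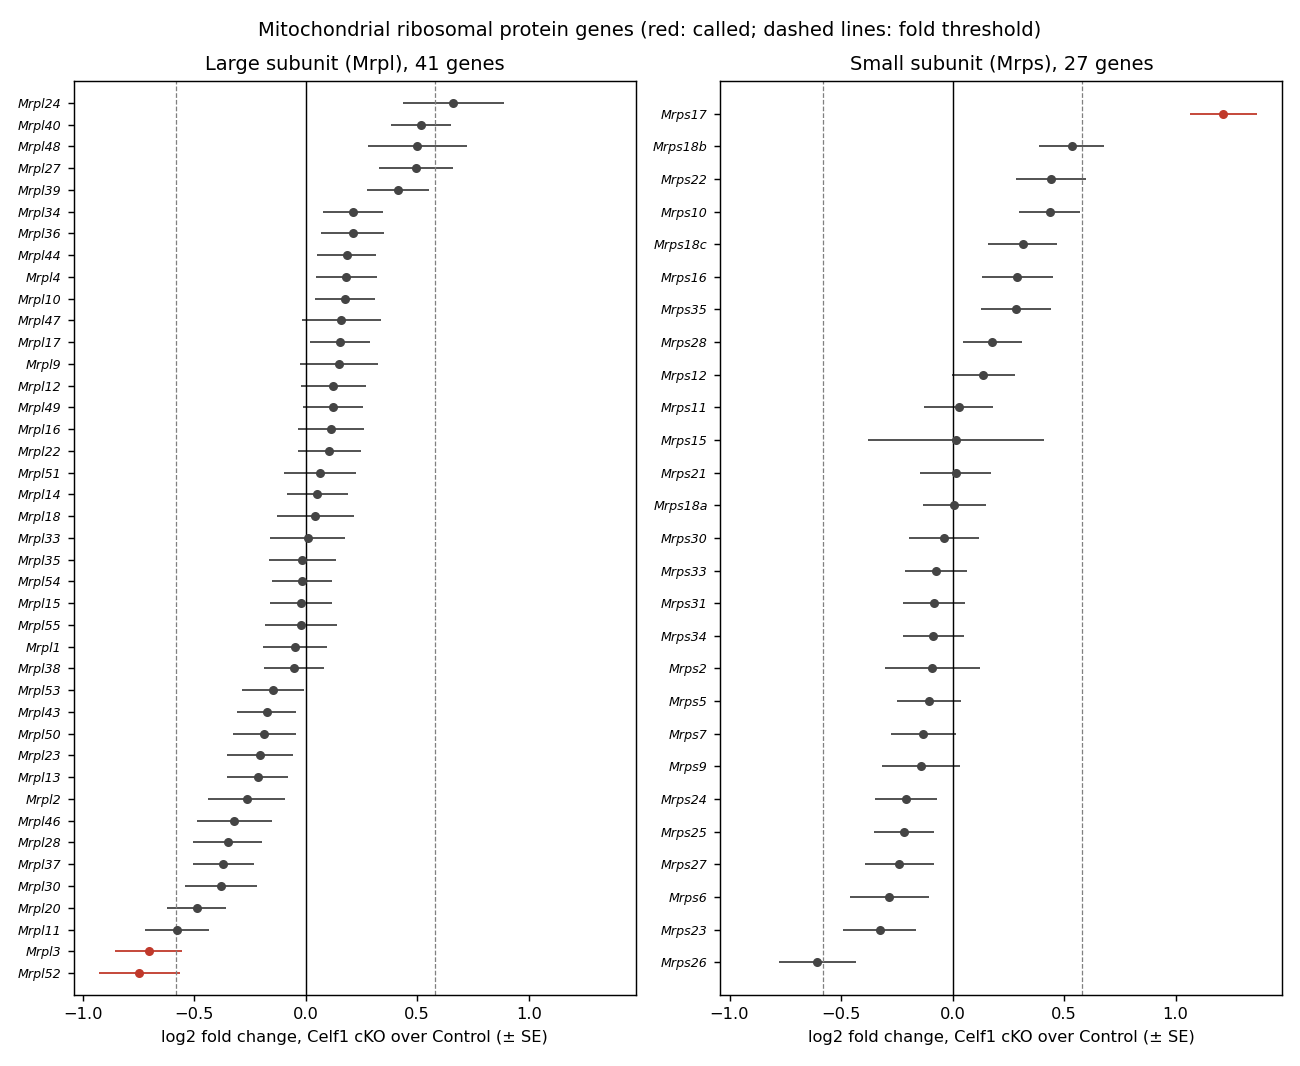
Log2 fold change of cKO over Control lenses for each of the 41 Mrpl genes (left) and 27 Mrps genes (right), ranked, with points for the estimate and bars for ± 1 SE of the limma fit. The 3 called genes are red, dashed lines mark the fold threshold of 0.58, and most genes lie near 0, between Mrpl52 at -0.75 and Mrps17 at 1.22.

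The large and small subunits were compared. The median log2 fold change was 0.008 over the 41 Mrpl genes (21 higher, 20 lower) and -0.037 over the 27 Mrps genes (13 higher, 14 lower), a difference of 0.045. To set this beside the replicate error, each gene was expressed relative to its Control mean and the median was taken in each lens. The Mrpl median was 0.015 and 0.069 in cKO and -0.014 and 0.014 in Control lenses. The Mrps median was -0.043 and -0.007 in cKO and -0.035 and 0.035 in Control lenses. The Mrpl minus Mrps difference was 0.058 and 0.076 in cKO A and B and -0.021 and 0.021 in Control B and A. Since genes were centred on the mean of 2 Control lenses, the Control values mirror each other, and the order of the lenses is not read further. The replicate SD of the difference was 0.023. No test is given, since genes of a subunit are not replicates and 2 lenses against 2 cannot reach significance in an exact permutation test. Structures of the mammalian mitochondrial ribosome place the proteins of Mrps18a and Mrps30 in the large subunit despite their names. Counted there, the medians were 0.007 and -0.075, a difference of 0.082. With no normalization between arrays the subunit difference was 0.002, and a scaling of whole arrays to a common median leaves it at that value by construction. Of the called genes, 2 of 41 were Mrpl (4.88%) and 1 of 27 was Mrps (3.7%). Groups did not overlap in 27 Mrpl (65.9%) and 16 Mrps genes (59.3%), beside 62.3% of all genes. The Mrpl counts and median include Mrpl39, which passed the detection filter through the cKO lenses alone.

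**Figure D2:**
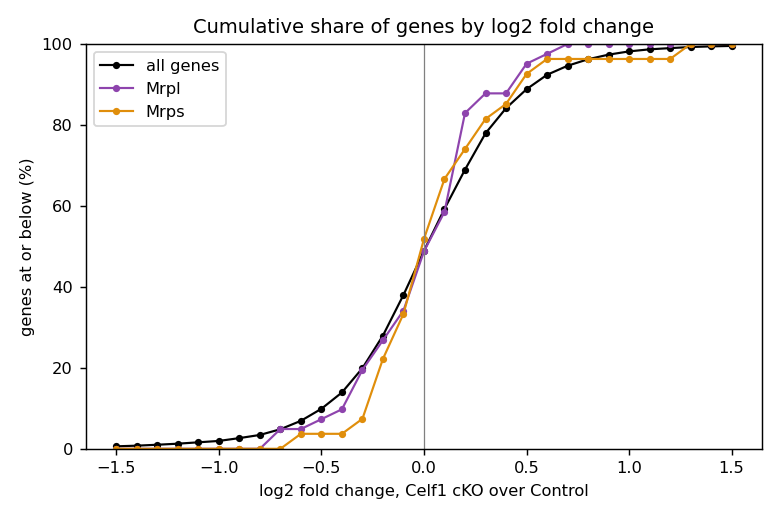
Cumulative share of genes (percent, vertical axis) at or below each log2 fold change of cKO over Control lenses (horizontal axis), for all genes tested, Mrpl genes and Mrps genes. The curves cross 0 close together (48.9% of all genes, 48.8% of Mrpl and 51.9% of Mrps genes at or below 0), and at a log2 fold change of 0.6 they stand at 92.4%, 97.6% and 96.3%.

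Mrps17 encodes a small subunit protein that descends from bacterial S17, a protein that binds ribosomal RNA. Its log2 signal was 9.92 and 9.95 in cKO A and B and 8.85 and 8.59 in Control A and B. Both cKO lenses lay well above both Control lenses, and the cKO lenses were close to each other. The log2 fold change was 1.22 ± 0.15 (SE, adjusted p = 0.00781), a 2.32-fold elevation. The unnormalized intensity was 1282.3 and 1408.2 in cKO against 417.1 and 277.2 in Control lenses. The gene was read by a single probe, at position 835 of its transcript in the array design, and no other probe on the array shared a run of 20 bases with it. Without normalization between arrays the log2 fold change was 2.07, or 1.503 relative to the median of all genes, and under the other alternatives tried it was between 1.09 and 1.34. The call was lost without cKO B (adjusted p = 0.0521).

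Mrpl3 encodes a large subunit protein that descends from bacterial L3, a protein near the site of peptide bond formation. Its log2 signal was 8.09 and 8.19 in cKO lenses and 8.72 and 8.97 in Control lenses. The groups did not overlap, and the log2 fold change was -0.71 ± 0.15 (SE, adjusted p = 0.0312). Its 2 retained probes, at transcript positions 379 and 1195, gave -0.71 and -0.70.

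Mrpl52 encodes a large subunit protein with no bacterial counterpart. Its log2 signal was 7.86 and 7.57 in cKO lenses and 8.29 and 8.63 in Control lenses, read by 1 probe, at position 333. The log2 fold change was -0.75 ± 0.18 (SE, adjusted p = 0.0423). The reduction of both genes is one relative to the other genes, since their unnormalized intensity did not fall: for Mrpl52 it was 333.0 and 292.7 in cKO against 292.9 and 282.6 in Control lenses. Without normalization between arrays, where the median of all genes rose by 0.57, the sign turned and Mrpl3 and Mrpl52 had log2 fold changes of 0.14 and 0.12, or -0.43 and -0.45 relative to that median. Leaving out either cKO lens or Control B ended both calls, with Mrpl3 at -0.75 to -0.58 and Mrpl52 at -0.89 to -0.58. Dropping the detection filter ended them too. Mrpl3 was then at -0.43 (limma adjusted p = 0.106), and Mrpl52 stayed at -0.75 (adjusted p = 0.132). With the deposited normalized table Mrpl52 was not called (adjusted p = 0.0530).

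The probes behind these calls are given by their first 30 of 50 bases, in the sense of the transcript, so that the measured stretch can be placed.
Mrps17, position 835: gcctaaggatgcggcatcattttgtgagct
Mrpl3, position 379: aaactgaatcccttgaaagatgagccgtgg
Mrpl3, position 1195: gcctgatgcccgggtgtggcaggactctgt
Mrpl52, position 333: ggaacatgatctcaaacctaaagggacttt

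Beyond these, the members of largest change whose cKO and Control values did not overlap were named. Above Control were Mrpl24, Mrps18b, Mrpl40 and Mrpl48, and below it Mrps26, Mrpl11 and Mrpl20, none of them called. Mrpl24, which encodes a protein at the exit tunnel, was at 8.01 and 7.98 in cKO and 7.68 and 6.99 in Control lenses (log2 fold change 0.66 ± 0.23 SE, adjusted p = 0.0987). The low value of Control B came from 20 beads with a standard error of 21.12% of the intensity, against 4.85% to 5.11% on the other arrays. Bead standard errors were higher on Control B than on the other arrays for most member probes, for example 13.20% for Mrpl20, against 3.60% to 6.33%. Mrps18b was at 7.66 and 7.86 against 7.19 and 7.26 (0.53 ± 0.14, adjusted p = 0.0560), and 1 of its 3 probes passed the thresholds in the fit of single probes. Mrpl40, which encodes a protein of the central protuberance without bacterial counterpart, was at 8.84 and 8.90 against 8.33 and 8.38 (0.52 ± 0.14, adjusted p = 0.0516). Its lenses agreed closely within each group.

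Mrpl48, another gene of the central protuberance, was at 8.47 and 8.77 in cKO and 8.41 and 7.82 in Control lenses (0.50 ± 0.22, adjusted p = 0.172), so that Control A lay just below cKO A. Its probe of largest change (0.65) was at 7.66 in Control B. That value came from 25 beads with a standard error of 16.40%, against 3.31% to 4.35% on the other arrays. Without Control B the Mrpl24 and Mrpl48 log2 fold changes were 0.32 and 0.21, and without Control A 1.01, which was called (adjusted p = 0.0271), and 0.79, which was not (adjusted p = 0.0524). Among the lower genes, Mrps26 was at 9.11 and 8.72 in cKO and 9.48 and 9.56 in Control lenses (-0.61 ± 0.17, adjusted p = 0.0608). It encodes a small subunit protein specific to mitochondria. Mrpl11, from the base of the stalk that binds translation factors, was at 8.35 and 8.26 against 8.78 and 8.98 (-0.58 ± 0.15, adjusted p = 0.0471). It passed the adjusted p and fell just short of the fold threshold, and it was called with cyclic loess (-0.59, adjusted p = 0.0371) and without Control A (-0.67, adjusted p = 0.0496). Mrpl20, which descends from bacterial L20, was at 8.11 in both cKO lenses and at 8.59 and 8.62 in Control lenses (-0.49 ± 0.13, adjusted p = 0.0565). Without normalization between arrays the sign of these 3 turned, to 0.25, 0.28 and 0.38, below the median of all genes of 0.57. Under that setting Mrpl24, Mrps18b, Mrpl40 and Mrpl48 rose to 1.499, 1.34, 1.37 and 1.36 and were called, as were Mrpl24 (0.74), Mrps18b (0.58) and Mrpl40 (0.61) with each array scaled to a common median of the probes detected on every array.

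**Figure D3:**
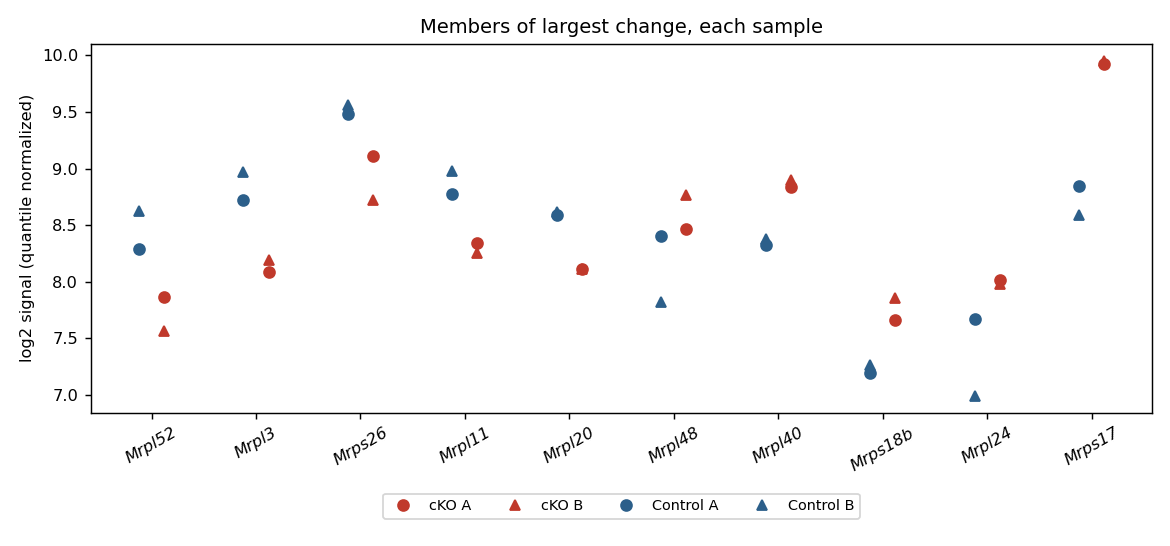
Quantile-normalized log2 signal (vertical axis) of the 10 members named by size of change (horizontal axis), with circles for replicate A, triangles for replicate B, red for cKO and blue for Control lenses. In each gene both cKO values lie on one side of both Control values, with the widest gap in Mrps17, and levels are not comparable between genes because each probe has its own response.

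The members, among them Mrpl39 with its direction fixed by the filter, were grouped by structural role, a grouping made after the values were seen. Of 44 tested genes with a bacterial counterpart 2 were called (median log2 fold change 0.021, 26 higher and 18 lower), and of 24 without one 1 was called (median -0.079, 8 higher and 16 lower), beside 11.7% of all genes called and 31.9% at an unadjusted p under 0.05. The 10 genes named Mrps without a counterpart had 8 below 0 (7 of 9 without Mrps30), and 0 were called by limma (2 at an unadjusted p under 0.05). Stalk genes did not move together: Mrpl10 was at 0.18 and Mrpl12 at 0.12, beside Mrpl11 at -0.58. Of 5 tested genes of the exit tunnel 4 were above 0 (Mrpl22 0.11, Mrpl24 0.66, Mrpl44 0.18, Mrpl47 0.16) and Mrpl23 was at -0.21. The central protuberance held both directions, with Mrpl40 at 0.52, Mrpl48 at 0.50, Mrpl18 at 0.04, Mrpl38 at -0.05 and Mrpl46 at -0.32. The S18 family, 3 proteins related to 1 bacterial protein, had values of 0.007 for Mrps18a, 0.53 for Mrps18b and 0.31 for Mrps18c. The stalk, exit tunnel, central protuberance and S18 groups held 0 called genes by limma, with 1 gene each at an unadjusted p under 0.05.

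Mrps10, which encodes the relative of bacterial S10, a protein of the head of the small subunit, had probes that moved in opposite directions. The gene's average was 7.84 and 7.97 in cKO and 7.47 in both Control lenses, a log2 fold change of 0.44 ± 0.14 (adjusted p = 0.0801), and it was not called. Without normalization between arrays the average was at 1.26 (limma adjusted p = 7.1e-05), or 0.69 relative to the median of all genes. In the fit of single probes, where 11.5% of 16262 probes were called, all 3 retained probes of Mrps10 passed the thresholds. They are shown by their first 30 of 50 bases.
Mrps10, position 559: ctggaagcacagccagtgtctacctggagt
Mrps10, position 825: agccaggtgggagcaggctgggtttcaggg
Mrps10, position 860: gctgtacctgttctctatagcagaggatgc
The first pair lies on chromosome 17 at 47514722 to 47514771 and 47515340 to 47515389, in coordinates of the files, which name no build. The probe at position 860 was designed on another transcript and has no position in the files. The longest run of bases shared between any pair of the 3 probes was 6 to 8 bases, and no other probe on the array shared 20 bases with them.

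The probe at position 559 had a log2 signal of 8.14 and 8.35 in cKO and 7.38 and 7.46 in Control lenses (0.82, adjusted p = 0.0216). The probe at position 825 had 7.86 and 7.90 against 6.47 and 6.31 (1.49, adjusted p = 0.00335). The probe at position 860 had 7.53 and 7.66 against 8.56 and 8.65 (-1.01, adjusted p = 0.0108). On each probe the lenses of a group lay closer to each other than to any lens of the other group. The unnormalized intensity of the probe at position 825 was 333.1 and 360.3 in cKO and 106.7 and 81.2 in Control lenses, and that of the probe at position 860 was 267.4 and 311.1 against 347.5 and 285.8. The probes were also compared within each array. The log2 signal of the probe at position 825 minus that of the probe at position 860 was 0.33 and 0.24 in cKO lenses and -2.09 and -2.34 in Control lenses. For the probe at position 559 minus that at position 860 it was 0.61 and 0.68 in cKO and -1.19 on both Control arrays. The probe at position 860 kept its direction under each scaling tried and was not called without normalization between arrays (-0.15, or -0.74 relative to the median of all probes).

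**Figure D4:**
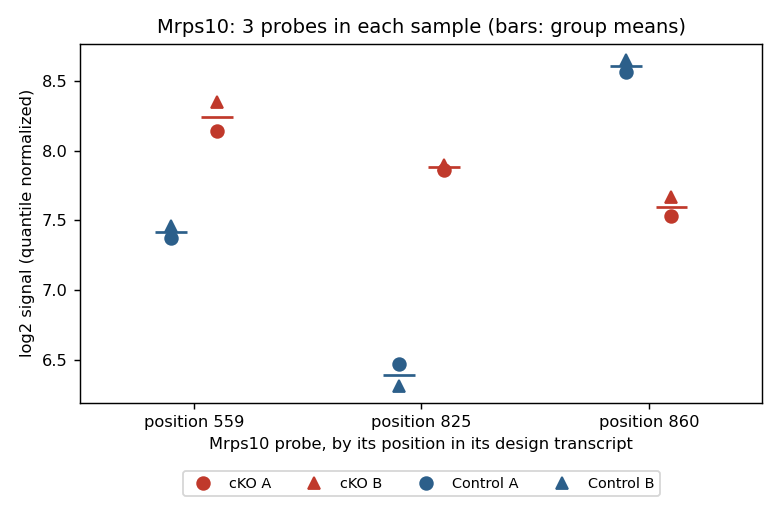
Quantile-normalized log2 signal (vertical axis) of the 3 retained Mrps10 probes, by position in their design transcripts (horizontal axis), with circles for replicate A, triangles for replicate B and bars for group means. Red cKO points lie above blue Control points at positions 559 and 825 and below them at position 860.

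Of the members, 22 had more than 1 retained probe, and the probes' log2 fold changes spread over a median of 0.199 within a gene. The probes differed in sign in 8 of the 22, among them Mrps10. In 6 of the others the values lay closer to 0, from -0.11 to 0.03 in Mrpl15, -0.22 to 0.24 in Mrpl33, -0.17 to 0.07 in Mrpl38, -0.04 to 0.16 in Mrpl51, -0.09 to 0.15 in Mrps11 and -0.23 to 0.17 in Mrps31. Mrpl49, the last of the 8, had the largest spread apart from Mrps10, 0.914, from -0.16 to 0.75 over 4 probes, none of them called. The probe at 0.75 was at 4.59 in Control B, below the lowest detected signal there (4.76), and at 5.54 in Control A. Of the 99 member probes 8 were called (8.1%), beside 11.5% of all probes, and they belonged to Mrps17, Mrpl52, both probes of Mrpl3, 1 of Mrps18b and 3 of Mrps10.

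At the lower end of the signal, 65 of the 68 members were detected on all 4 arrays. Mrpl39, a large subunit gene, was detected in both cKO lenses (log2 signal 4.89 and 4.76) and in neither Control lens (4.44 and 4.38). It passed the filter through the cKO group alone and was at least 1.06-fold higher there. No test is given for it, since the filter fixed its direction. Mrps15 was at 5.34 and 5.46 in cKO lenses and at 6.07 and 4.70 in Control A and B, with Control B not above background, so that the Control lenses spanned both cKO lenses. Without Control A it was detected in the cKO lenses alone, and no value is given for that fit. Mrpl19, Mrpl21, Mrpl32, Mrpl45 and Mrps14 were not retained. Both Mrpl45 probes were detected on 1 array each and the probes of the other 4 on 0 arrays. Over the members, A and B differed by a median of 0.096 in cKO and 0.122 in Control lenses, and the Control pair differed more in 41 genes. Genes that RefSeq names Mrpl42, Mrpl57 and Mrpl58 stand under other symbols in the files (D10Ertd322e, Mrp63 and Ict1) and are not members by the rule. Their log2 fold changes were 0.003, 0.25 and -0.07, none called.

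Genes that act with the mitochondrial ribosome were taken from lists of known function. None of 7 ribosomal proteins with another name was called by limma, with 1 at an unadjusted p under 0.05. Of 23 tested genes of ribosome assembly and rRNA modification 2 were called (8.7%, median -0.032). Noa1, a GTPase of small subunit assembly, was at 8.50 and 7.94 in cKO and 9.48 and 9.74 in Control lenses (-1.39 ± 0.21, adjusted p = 0.0140), with its 3 probes at -1.23, -1.46 and -1.48. Mpv17l2, a membrane protein that associates with the ribosome, was at 8.40 and 8.63 against 7.995 and 7.83 (0.60 ± 0.15, adjusted p = 0.0477). Noa1 was thus reduced by more than any of the 68 members.

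Of 15 tested mitochondrial translation factors and mRNA partners 2 were called (13.3%, median 0.047), both elevated. Lrpprc, which stabilizes mitochondrial mRNAs, was at 6.22 and 6.35 in cKO and 5.10 and 5.37 in Control lenses (1.05 ± 0.16, adjusted p = 0.0122), with 2 of its 3 probes called. The called probe at 1.39 had unnormalized Control intensities of 53.0 and 49.0, near background, and the called probe at 1.015 had 101.6 and 85.8. With detection required on every array the gene was at 1.015. Oxa1l, which inserts new chains into the inner membrane, was at 6.86 and 7.14 against 6.26 and 6.46 (0.64 ± 0.16, adjusted p = 0.0479). Of 15 genes of mitochondrial DNA transcription and replication 1 was called (6.7%, median -0.023). It was Gabpa, the DNA-binding subunit of the ETS family factor GABP, at 5.30 and 5.13 in cKO and 6.15 and 6.19 in Control lenses (-0.96 ± 0.14, adjusted p = 0.0121). Of 14 genes of mitochondrial import and mass 0 were called by limma (2 at an unadjusted p under 0.05), with a median of 0.16. Of 61 tested genes of cytosolic ribosomal proteins 2 were called (3.3%), and their median was -0.114 with 43 below 0. The background of all these shares is 11.7% of all genes. Without cKO B none of the 5 called genes of these mitochondrial lists was called (adjusted p from 0.0683 for Noa1 to 0.303 for Oxa1l), the calls of Mpv17l2 and Oxa1l were lost whichever sample was left out, with the deposited normalized table and with an offset of 50, that of Mpv17l2 also with the brightest probe, and leaving out Control B ended those of Noa1 (adjusted p = 0.0777) and Gabpa (adjusted p = 0.0587). Dropping the detection filter ended all 5 calls (adjusted p from 0.0569 to 0.131), with Gabpa at -0.28 and the folds of the other 4 as before. Without normalization between arrays Noa1 and Gabpa were at -0.53 and -0.39 and not called, which is -1.10 and -0.96 relative to the median of all genes. Mpv17l2, Oxa1l and Lrpprc were then at 1.46, 1.39 and 1.58, or 0.89, 0.82 and 1.01 relative to that median. With an offset of 50, Gabpa was at -0.58 and Lrpprc at 0.64.

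Short motifs known to bind factors of mitochondrial genes were searched on both strands of RefSeq promoter windows (GRCm38.p6, 300 bases from upstream of the start site to just past it) for 60 of the 68 members. The ETS motif CCGGAAG was found in 23 members (38.3%, against 20.3% of 8072 tested genes with a window), 12 Mrpl and 11 Mrps. The YY1 motif AAGATGGC was found in 10 (16.7%, against 5.4%) and the NRF1 motif GCATGCGC in 7 (11.7%, against 5.9%). The SP1 motif GGGCGG was found in 29 (48.3%, against 69.1%). Members with and without a motif had medians of 0.043 and -0.037 for ETS, -0.004 and 0.011 for YY1, 0.155 and -0.037 for NRF1 and 0.015 and 0.007 for SP1. These are matches of letters and no measured binding. The windows of Mrpl3 and Mrpl52 held the ETS motif and that of Mrps17 held SP1, while that of Mrps10 held none of the 4. A stretch of 30 bases with the motif in capitals is shown for the called genes, read on the gene's plus strand, so that a reverse match appears as its complement.
Mrpl3, chr9:105053237-105053266: ttgagaaacggaCCGGAAGtggcccggctg
Mrpl52, chr14:54426850-54426879: tcaagatgtcggCTTCCGGttttcccggca
Mrps17, chr5:129715424-129715453: ttatctttagccCCGCCCaagactgacagg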

How the data were processed

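The authors deposited unnormalized and rank-invariant normalized signal intensity for each probe, a detection p-value from the rank of a probe among negative controls, and bead counts with their standard error, all exported from Illumina's software. The scanner and the genome build of the probes are not given in the sources used here. Of 45281 probes, 18 lines with shifted cells were left out, and for 40 probes a symbol shown as a date was taken from the unnormalized table. Probes were named through RefSeq (29586 by Entrez identifier, 2759 by accession, 2214 by symbol, 2369 by older symbol), and 8335 kept the file's symbol.

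The unnormalized intensity was background corrected from the detection p-values (limma version 3.58.1, R version 4.3.3, offset 16), put on the log2 scale and quantile normalized. Probes with detection p under 0.05 on at least 2 arrays were averaged per gene, as in the methods of the study, and compared with lmFit and eBayes, two-sided, adjusting by Benjamini-Hochberg over the 11516 genes. Fold changes include the offset and understate the change of dim genes. The methods name edgeR, a count model, which was not applied to intensities. Python version 3.11.15 read the tables. The fit was also run on simulated data drawn from its own variance model, and no result above rests on that run.

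Precision is limited by 2 arrays in each group. The members, lists, tests and alternatives were chosen with earlier results of these data known. Named were Celf1, called members, the 5 highest and 5 lowest members without overlap of the groups, members whose probes differ in sign, and called genes of the lists. The neighbours, the structural roles and Mrps15 and Mrpl39 were chosen after their values were seen. For a gene undetected in a group, the change is a bound against the lowest detected signal. Alternatives covered the table, background correction, scaling, detection filter, minimum signal, choice of probe, variance model, the replicate letter as a block, and leaving out each sample.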

Additional observations from a re-analysis of the deposited data

How the results depend on the processing

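The main result, few called members with medians near 0, held with quantile or loess scaling and depended on normalization between arrays. The 1342 called genes, 2 Mrpl and 1 Mrps became 5789, 30 and 20 with no normalization between arrays (97.7% of calls elevated, all-gene median 0.57, against 51.6% elevated in the main analysis). With each array scaled to a common median of the probes detected on all 4 arrays they became 2692, 5 and 2 (24.9% elevated, all-gene median -0.189). Under both scalings the Mrpl and Mrps medians lay 0.209 and 0.207 above the median of all genes, a difference of 0.002, and Mrpl15 was at 0.206, Mrpl38 at 0.057, Mrpl51 at -0.256 and Mrps31 at 0.155 relative to it, each of opposite sign to the main value. The number of called genes was 789 with an offset of 50, 880 with a minimum signal of 6 and 207 with no detection filter, where 0 Mrpl genes were called by limma and Celf1 was at -1.16 (adjusted p = 0.0715). The deposited normalized table gave 1 Mrpl call, with Mrpl33 at -0.012 and Mrpl51 at -0.021. Mrps calls were 2 with detection in all 4 samples and 2 with a trended robust variance (Mrps26 added), and 3 with the brightest probe of a gene, where Mrps10 turned to -1.008, Mrpl33 to -0.222, Mrpl38 to 0.066, Mrpl49 to -0.151, Mrps11 to -0.093 and Mrps31 to 0.169. Mrpl15 was at 0.061 with no detection filter and Mrpl49 at -0.088 with detection in all 4 samples. With Mrps18a and Mrps30 counted in the large subunit, the subunit difference was 0.082. The cause of these changes was not tested.

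Leaving out a sample gave 163 to 1356 called genes (171 without Control B, 163 without cKO B and 594 without cKO A), 0 to 4 Mrpl and 0 to 2 Mrps calls (Mrps15, added without Control A, was then detected in cKO lenses alone), and a subunit difference of 0.032 to 0.081. The lone sample of a group was then assumed to vary like the other group. Celf1 ranged from -1.673 without cKO A to -1.177 without cKO B, and its call was lost without Control B (-1.53, adjusted p = 0.0564). Near 0 and not called in these fits, Mrpl15 ranged from -0.091 to 0.048, Mrpl33 from -0.162 to 0.188, Mrpl51 from -0.125 to 0.253 and Mrps11 from -0.085 to 0.139. With the replicate block, 1675 genes, 3 Mrpl and 2 Mrps genes were called (Mrpl24 and Mrps26 added). The letters do not pair the lenses (correlation of the A minus B differences -0.0112 across genes).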

Other observations

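Neighbours of the named members, taken from the order of genes in RefSeq (GRCm38.p6), gave a few further values. Of 28 neighbours tested 6 were called (21.4%, beside 11.7% of all genes), or 5 of 25 without those above background in 1 group alone, and they lay around 3 members, Mrps26, Mrpl52 and Mrps18b. Beside Mrps26, which was at -0.61 and not called, Oxt (-1.92 ± 0.22, adjusted p = 0.00626) and Avp (-1.25 ± 0.21, adjusted p = 0.0178) were reduced in cKO lenses. The gene on its other side, 4930473A02Rik, was above background in the Control lenses alone, at least 1.98-fold higher there. Oxt, the gene of oxytocin, had a log2 signal of 6.02 and 5.44 in cKO and 7.50 and 7.81 in Control lenses, and Avp, the gene of vasopressin, 7.14 and 6.70 against 7.96 and 8.39. Ptpra, the next gene, was at 0.12 (adjusted p = 0.607). Beside Mrpl52, Mmp14, a membrane-bound metalloprotease, was reduced (-0.88 ± 0.16, adjusted p = 0.0212), with 6.34 and 6.68 in cKO and 7.34 and 7.44 in Control lenses, Slc7a7 was at -0.01, and Oxa1l, the next gene, was elevated (0.64, adjusted p = 0.0479). Beside Mrps18b, Atat1, a tubulin acetyltransferase, was elevated (1.04 ± 0.20, adjusted p = 0.0223), and Ppp1r10, which is closer to Mrps18b, was at 0.18 (adjusted p = 0.396). The neighbour of Mrps17 that was tested, Nipsnap2, was at 0.20 (adjusted p = 0.398).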
